A study of Mus musculus with 18 samples.

Results

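The genes described here encode 41 subunits of the mitochondrial respiratory chain and ATP synthase and 2 assembly proteins of cytochrome c oxidase, and their translation was followed in 3 tissues of the mouse embryo at E11.5. A gene was taken when the lists the study gave for translational efficiency in mesoderm, or for neural tube (NT) against forelimb bud (FL), carried a symbol beginning with Nduf, Cox, Uqcr, Sdh or Atp5. This gave 43 of the 12241 genes in the deposited tables, and all 43 were present in both tables. The genes were thus selected on measured values, their TE in mesoderm or their difference in TE between FL and NT. The study's NT and FL list supplied 41 of the genes, 40 as FL-TE-higher and Ndufs1 as NT-TE-higher. Its mesoderm list supplied 8, all as TE-high, and 6 genes were in both lists. Symbols were at hand for 27.6% of the genes in the mesoderm table and 28.4% in the NT and FL table, mainly genes placed in a TE class, so a subunit without a shift had little chance to enter.

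Ribo-Seq, which sequences ribosome-protected fragments (RPFs), was run beside RNA-Seq of polyA mRNA, with 3 replicates of each in each tissue and 18 libraries in all. Mesoderm cells were GFP+ cells sorted from E11.5 embryos carrying the mT/mG reporter and a T-Cre transgene, whose promoter marks descendants of the primitive streak, and each sorted pool was divided between both assays. NT and FL were microdissected from E11.5 FVB embryos without a transgene, both tissues from the same embryos, and cycloheximide was present in all collections. Translational efficiency (TE) is the ratio of RPFs to mRNA reads on the coding sequence of a gene, given as log2 and set to 0 at the median gene of a tissue. In whole-tissue libraries, fewer cells of a type and less RNA per cell cannot be told apart.

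The respiratory chain passes electrons from NADH through complex I, or from succinate through complex II, to complex III and, by way of cytochrome c, to complex IV, which reduces oxygen. Complexes I, III and IV pump protons across the inner mitochondrial membrane, and ATP synthase, complex V, uses that gradient to make ATP. Most subunits are encoded in the nucleus, translated in the cytoplasm and imported, while a few core subunits of complexes I, III, IV and V are made inside mitochondria from mitochondrial DNA. The genes here are all of the nuclear kind. Complex I contributed 19 genes, complex II 2, complex III 4, complex IV 6 and complex V 10, and Cox14 and Cox17 serve complex IV without being part of it, Cox17 as a copper chaperone. Ndufa4 is counted with complex I by its name, although the protein has been found in complex IV.

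Mesoderm RNA-Seq libraries held between 38054003 and 50136443 reads on coding sequences and Ribo-Seq libraries between 11000015 and 16802829, while NT and FL libraries held between 24555103 and 33061460 for RNA and between 12967893 and 31993255 for RPFs. The lowest RPF count of any of the 43 genes in any library was 107 reads, where counting error alone is 9.67%. Dcx mRNA ranged from 2675 to 7953 normalized reads in NT and from 301 to 345 in FL, Hoxd13 from 54.6 to 192 in NT and from 6659 to 9600 in FL, and Myf5 from 140 to 215 in mesoderm. The embryonic globin Hba-x was present in every library. The RNA-Seq library NT 1 had the lowest Dcx of its tissue, at 2675 beside 7953 and 6797 in NT 2 and NT 3. It had the highest Epcam, an epithelial marker (659 beside 96.0 and 107), and Tcf15, a mesodermal one (436 beside 125 and 53.0). The limb bud markers were divided. In NT 1, Msx1 (1161 beside 668 and 633) and Hoxd11 (273 beside 206 and 239) were highest. Hoxd13 (54.6 beside 153 and 192) and Hoxd10 (260 beside 361 and 526) were lowest there. Ribo-Seq libraries NT 3 and FL 3 stood apart from the others of their tissue. Pearson's r of log2 RPFs across genes was 0.989 between NT 1 and NT 2 but 0.933 and 0.934 with NT 3, and 0.976 between FL 1 and FL 2 but 0.886 and 0.896 with FL 3. The main FL and NT summaries are also given without replicate 3, and the FL minus NT summaries without NT RNA-Seq 1.

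The proteins were short. The median coding sequence had 129 codons against 401 over 19859 annotated coding genes, and 39 of the 43 had fewer than 200 codons, which held for 15.1% of all coding genes. Ndufs1, with 727 codons, was the long exception, and the next longest, Ndufs7, had 224. The annotated 5′ leader had a median of 103 nt against 157 nt over all coding genes. Start sites are shown for the genes on which the results turn, in the mouse GRCm38 assembly with GENCODE vM21 transcripts. Each line holds 12 bases before the start codon and 12 from it onward, joined across introns where there are any, and capitals mark the base at position −3 and the start codon with the base that follows it, the positions that weigh most in start codon choice.
Uqcr11: gaccctgcaGcgATGCtgagcagg
Cox5a: gtggtcgccGtcATGCtcgccgct
Sdhc: ccggaactcAagATGGctgcgttc
Atp5h: aagtatcccAagATGGctgggcgt
Cox8a: ttccgcgccGtcATGTctgtcctg
Ndufb7: ggcagagtaGccATGGgggcgcac
Uqcrh: ccggctcccGacATGGgactagag
Uqcr10: cagtgaggcAacATGTcgtcgccg
Cox14: ccaggggaaGacATGCcatctgcc
Ndufs1: aggaaagccAtcATGTtaaggata
The transcripts lie at chr10:80402997-80406830 on the minus strand for Uqcr11, at chr9:57521279-57532426 on the plus strand for Cox5a, at chr1:171127165-171150603 on the minus strand for Sdhc and at chr1:63143596-63176822 on the minus strand for Ndufs1, whose coding sequence spans 18 exons. Of the 42 genes with at least 12 annotated leader bases, 41 had a purine at −3 (97.6% against 84.1% of all coding genes) and 23 had G at the base after the start codon (54.8% against 49.4%). Sdhc and Atp5h share AAGATGG around the start codon, a part of the element known as TISU, which is associated with short leaders. The whole element was not searched. The word AAGATGG, searched after the start sites had been seen, stood at the start of 6 of the 41 genes examined for it (14.6% against 3.97%), the others being Atp5j2, Atp5o, Ndufc1 and Ndufs7. Annotated leaders of these 6 genes ran from 24 nt for Ndufs7 to 547 nt for Atp5j2. Uqcr11, at the top of the mesoderm TE range, and Cox14, near its bottom, both have G at −3 and C after the start codon. Whether these letters go with TE was not tested.

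In mesoderm, nearly all of the 43 genes were translated more efficiently than the median gene. Of the 41 genes taken from the NT and FL list, 35 were not in the mesoderm list. These 35 had a median log2 TE of 1.10, and 30 of them passed above the median gene by the test below. FL TE, which took part in their choice, itself follows mesoderm TE across genes, so these values are a description. For all 41 the median log2 TE was 1.17, which is the value of Atp5o, a 2.26-fold higher ratio of RPFs to mRNA than at the median gene, and the middle 90% of all genes ran from −2.11 to 1.28. By limma on log2 values with Benjamini-Hochberg adjustment over 12064 genes, 36 of these 41 lay above the median at an adjusted p under 0.05, beside 32.0% of all genes, and 1, Ndufs1, lay below it, beside 34.2% of all genes. The 4 that passed in neither direction were Cox14, Cox17, Uqcrh and Uqcr10. At the 3-fold threshold of TE-high, 3 of the 43 passed, Uqcr11, Cox5a and Sdhc, beside 1.17% of all genes. These 3 are in the study's own TE-high list, so their count is a description. That count rested on single replicates, with 9 genes passing without replicate 1 (2.25% of all genes), 1 without replicate 2 (0.597%) and 8 without replicate 3 (1.58%). The 36 above the median remained a count of 36 without replicate 1 (30.1% of all genes) or 2 (33.6%) and became 33 without replicate 3 (21.5%). Replicate 2 gave the highest TE for 38 of the 43 genes, and the share of all genes was not computed. The 95th percentile of TE over all genes was highest there too, at 1.62 beside 1.17 and 1.28 in replicates 1 and 3. Hba-x RPFs in mesoderm were also highest in replicate 2, at 9340, 84280 and 18362 normalized reads in replicates 1 to 3, and the part of blood cells in these values was not tested.

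**Figure D1:**
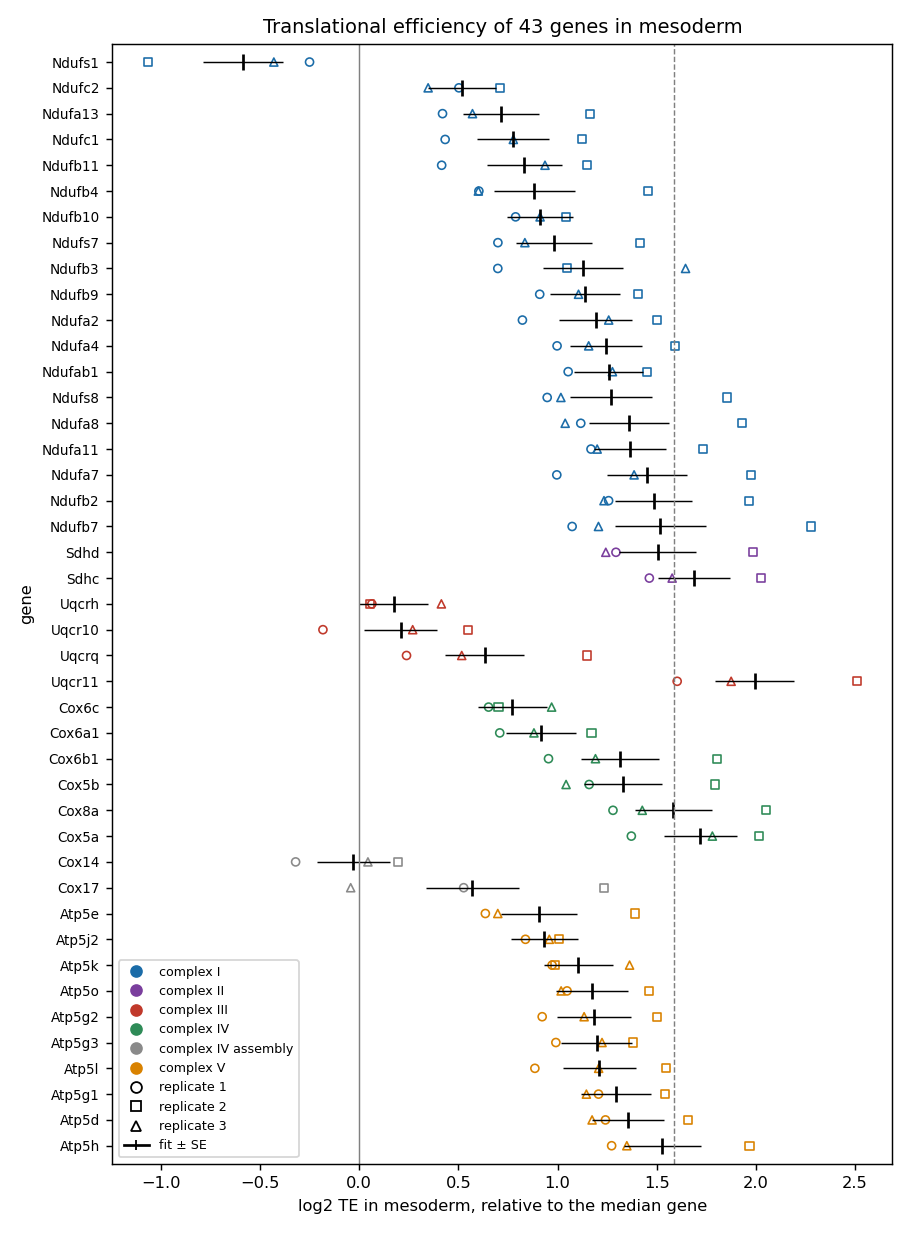
Log2 TE in mesoderm for each of the 43 genes, ordered by complex. Open symbols are the 3 replicate pairs, black ticks with bars are the fit ± SE, the solid line is the median gene and the dashed line marks 3-fold. The 38 genes that passed above the median gene lie at right, and Ndufs1 is the gene on its left in every replicate.

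Succinate dehydrogenase, complex II, was represented by its membrane anchors, both of which entered through the mesoderm list. Sdhc had 1927, 3028 and 2824 normalized mRNA reads and 5526, 12397 and 8642 RPFs in replicates 1 to 3, and its log2 TE was 1.69 ± 0.18 (SE, n = 3 pairs). Sdhd followed at 1.51 ± 0.19. Both genes had a TE above the median gene in all 3 pairs, as did 37 of the 41 genes taken from the NT and FL list, beside 39.7% of all genes.

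In complex IV, cytochrome c oxidase, all 6 subunits passed above the median, from Cox6c at 0.77 to Cox5a at 1.72, with a median of 1.32, Cox5a and Cox8a having entered through the mesoderm list. Cox5a, a subunit on the matrix side of the enzyme, had 2557, 2280 and 1504 mRNA reads and 6885, 9246 and 5298 RPFs. Its TE of 1.37, 2.01 and 1.78 in the pairs lay above log2 of 3, which is 1.58, in replicates 2 and 3. Cox8a, a small membrane subunit, fell just short of 3-fold, at 2.998 times the median gene. Cox6c gave 0.65, 0.70 and 0.97 in the pairs, and its call was lost without replicate 3 (adjusted p = 0.096). The assembly proteins did not share the high values of the subunits. Cox14 had 249, 469 and 382 RPFs on 299, 408 and 361 mRNA reads, with a TE of −0.03 ± 0.18 (limma adjusted p = 0.89), and Cox17 reached 0.57 ± 0.23 (limma adjusted p = 0.051). Cox17 passed without replicate 1 (0.59, adjusted p = 0.039) or replicate 3 (0.88, adjusted p = 0.015), and was at 0.24 without replicate 2 (adjusted p = 0.28).

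Complex III held the highest and some of the lowest values. Uqcr11, a very small subunit of the cytochrome bc1 complex, had 647, 984 and 923 mRNA reads and 2045, 5632 and 3473 RPFs. At 1.99 ± 0.20, nearly 4-fold above the median gene, it ranked at percentile 99.8 of all genes, having entered through the mesoderm list. Uqcrh, the hinge protein that contacts cytochrome c1, had 1744, 1548 and 1305 mRNA reads but only 1895, 1612 and 1782 RPFs, for a TE of 0.17 ± 0.17 (limma adjusted p = 0.39). Uqcr10 was at 0.21 and Uqcrq, which passed, at 0.63. Per kb of counted coding sequence, Uqcr11 and Uqcrh were alike in mean mRNA, at 7882 and 7402 normalized reads, and apart in mean RPFs, at 34414 and 8516.

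ATP synthase was the most even of the larger groups. All 10 genes of complex V passed, from Atp5e at 0.91 ± 0.19 to Atp5h at 1.53 ± 0.19, with a median of 1.19, Atp5h having entered through the mesoderm list. Atp5e encodes the epsilon subunit of the central stalk and Atp5h the d subunit of the peripheral stalk. Without the replicate block, Atp5e no longer passed (adjusted p = 0.088). Atp5g1, Atp5g2 and Atp5g3 encode precursors that are processed to an identical subunit c, the protein of the rotating membrane ring. Their TE was 1.30, 1.18 and 1.20, with SEs of 0.18, 0.19 and 0.18, so the 3 genes differed by less than their errors. Per kb of counted coding sequence, their mesoderm mRNA averaged 9945, 18077 and 18497 normalized reads and their RPFs 25521, 43662 and 43755, with Atp5g1 the lowest in both. All counted 28-base words of Atp5g1 and Atp5g2 occur in a GENCODE transcript of some other gene, and none of Atp5g3 do. The study kept reads that mapped uniquely to canonical UCSC transcripts, a different set. Levels of Atp5g1 and Atp5g2 could depend on how such reads were kept, which was not tested. Over the 43 genes, 14 had no such shared word and 12 shared more than 50% of theirs.

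Complex I gave 18 of 19 genes above the median, with a median of 1.14. Ndufb7 was the highest at 1.52 ± 0.23 and Ndufb2 next at 1.48 ± 0.19, both accessory subunits of the membrane arm. Both had entered through the mesoderm list, so their rank repeats that choice. Ndufs1, the iron-sulfur subunit at the NADH end of the complex, was the exception. It had 4915, 3373 and 3167 mRNA reads and 4296, 1616 and 2407 RPFs, and its TE was −0.25, −1.07 and −0.43 in the pairs. The fitted −0.59 ± 0.20 lay below the median gene (limma adjusted p = 0.024), and this call was lost without replicate 3 (adjusted p = 0.11) or without the replicate block (adjusted p = 0.22). Per kb of counted coding sequence, its mRNA, at 1800 normalized reads, and its RPFs, at 1307, were both the lowest of the 43. Ndufs7 and Ndufs8, the other Ndufs genes here, had a TE of 0.98 and 1.27.

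Length among the 43 genes did not order the TE. Across genes, Spearman's rho between log2 TE in mesoderm and log2 codons was 0.23 (Pearson's r = −0.07, n = 43), and without Ndufs1 the values were 0.32 and 0.34 (n = 42), with genes sharing libraries and not being independent replicates. The first 15 and last 5 codons were left out of the counting, so that Atp5e, the shortest at 52 codons, was counted over 32.

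The ranking of the genes carried over to the other tissues, in FL less closely than over all genes. Across the 43 genes, mesoderm TE and NT TE correlated with r = 0.82 and rho = 0.89, and mesoderm TE and FL TE with r = 0.78 and rho = 0.74, as against r = 0.87 and 0.93 over 11054 shared genes. Without Ndufs1 the values were r = 0.90 and rho = 0.89 for NT and r = 0.71 and rho = 0.73 for FL. With pairs 1 and 2 alone of NT and FL, the values over the 43 genes were r = 0.67 and rho = 0.75 for NT and r = 0.77 and rho = 0.71 for FL. Mesoderm shares no libraries with NT or FL, but gene lengths and sequence are common to the tissues. In NT the fitted log2 TE had a median of 0.71 over the 43 genes, from −0.47 for Uqcr10 to 1.60 for Uqcr11, and in FL it had a median of 1.80, from −1.09 for Ndufs1 to 2.88 for Uqcr11. From pairs 1 and 2 alone the medians were 0.57 and 2.23. In FL 42 of the 43 genes were above the median gene in all 3 pairs, beside 37.6% of all genes, and in NT 29 were, beside 30.5%. Uqcr11 was the highest in each tissue by the fit. The NT and FL values took part in the choice of most of the genes and are given as a description.

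**Figure D2:**
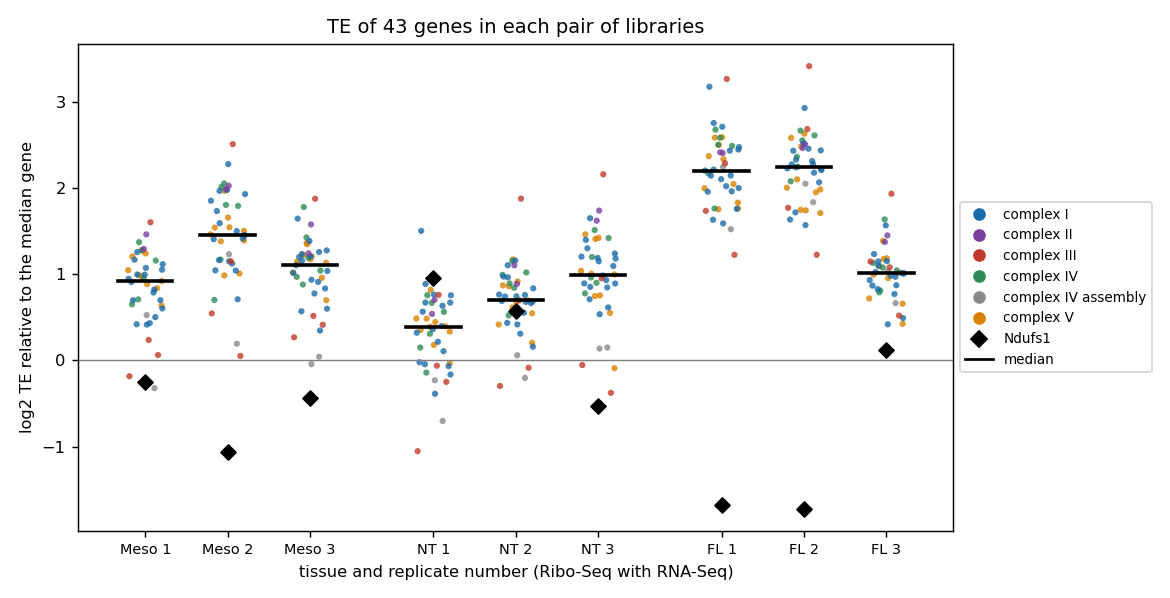
Log2 TE of the 43 genes in each pair of Ribo-Seq and RNA-Seq libraries with the same tissue and replicate number. Points are genes coloured by complex, the diamond is Ndufs1 and the bar is the median, which is 2.20 and 2.24 in FL 1 and FL 2 but 1.01 in FL 3, and 0.39, 0.70 and 0.99 in NT 1 to NT 3. The 95th percentile of all genes, not drawn, is 2.10, 2.06 and 1.10 in FL 1 to FL 3 and 1.29, 0.97 and 1.45 in NT 1 to NT 3.

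How FL and NT differed can be seen in the reads themselves. The 43 genes together took 0.459%, 0.349% and 0.402% of normalized mRNA reads in NT 1 to NT 3 and 0.378%, 0.391% and 0.382% in FL 1 to FL 3, so the tissues overlapped. They took 0.563%, 0.558% and 0.800% of RPFs in NT and 1.33%, 1.39% and 0.708% in FL. Replicates 1 and 2 of FL were thus well above every NT library, while FL 3 fell below NT 3. In mesoderm, whose table was normalized separately, they took 0.408%, 0.471% and 0.433% of mRNA reads and 0.724%, 1.15% and 0.839% of RPFs. NT 1, the RNA-Seq library with the highest share in NT, gave the lowest NT TE for 36 of the 43 genes. For that count, the share of all genes was not computed, and the part of the NT 1 marker values in these results was not tested. Hba-x RPFs moved in the same order within each tissue, with 49354, 48778 and 66360 normalized reads in NT 1 to NT 3 and 128515, 164781 and 84882 in FL 1 to FL 3. Its mRNA went the other way, at 18979, 15874 and 10789 in NT and 13021, 15434 and 23440 in FL. Hba-x was the only blood marker with a value, and its part in the result was not tested.

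**Figure D3:**
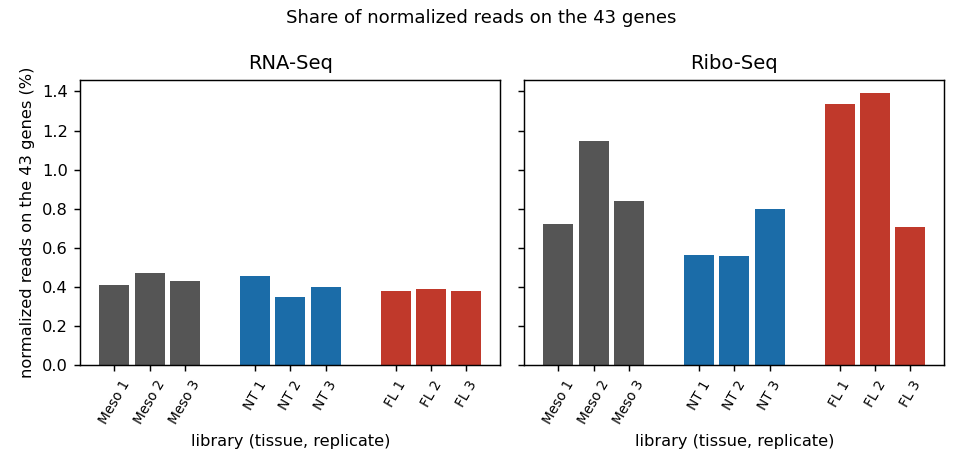
Percent of all normalized reads that fell on the 43 genes, for each of the 18 libraries, with RNA-Seq at left and Ribo-Seq at right. RNA shares stay between 0.349% and 0.471%, and RPF shares run from 0.558% in NT 2 to 1.39% in FL 2, with NT 3 and FL 3 close together.

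The fitted FL minus NT difference in log2 TE had a median of 1.07 over the 43 genes, from −1.45 for Ndufs1 to 2.00 for Uqcr10, against 0.01 over all 11231 genes. By replicate number, the median difference was 1.88 from replicates 1, 1.50 from replicates 2 and −0.02 from replicates 3. Without replicate 3 it was 1.64, and without the RNA-Seq library NT 1 it was 0.96. In the fit with all libraries, 1 of the 43 genes, Uqcr10, met the FL-TE-higher thresholds of an adjusted p under 0.2 and 2-fold, beside 0.125% of all genes, and for the rest the adjusted p lay between 0.29 and 0.38. On recovered reads, edgeR called 1 of the 43 (0.160% of all genes) and DESeq2 22 (5.08%). Without replicate 3, 42 met them, beside 20.7% of all genes, and Ndufs1 met those of NT-TE-higher, beside 22.3%. The study had listed 40 of the 42, and Ndufs1, in these directions, so these counts repeat the choice. At an unadjusted p under 0.05, 28 of the 43 passed, beside 16.9% of all genes, and this count largely repeats the choice too. With a replicate block that ties same-numbered NT and FL libraries within each assay, 0 of the 43 were called, Uqcr10 having an adjusted p of 0.52 in limma. Its call was also lost without replicate 1 (limma adjusted p = 0.99) or replicate 2 (0.93), without the RNA-Seq library NT 1 (0.33), and without any of the Ribo-Seq libraries NT 1, NT 2, FL 1 and FL 2. Leaving out only the Ribo-Seq library FL 3 gave 42 calls (16.5% of all genes) and leaving out only NT 3 gave 38 (11.1%). The study's lists came from its DESeq fit, so genes inside them can lie below 2-fold or 3-fold in the limma values here. At the edge of the FL-TE-higher list, Atp5o (0.90) and Ndufab1 (0.91) were inside, and Atp5h (0.90) and Ndufb2 (0.70) were outside. At the edge of the mesoderm TE-high list, Ndufb2 (1.48) and Sdhd (1.51) were inside, and Ndufa7 (1.45) and Ndufa11 (1.36) outside.

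Atp5h and Ndufb2 entered through the mesoderm list alone, so their FL minus NT values did not bring them in. Mesoderm TE, on which both were chosen, follows FL TE (r = 0.93) and NT TE (r = 0.87) over all shared genes. The values of both genes are therefore a description too. Atp5h had 7238, 7139 and 11181 RPFs in NT and 21802, 21928 and 8816 in FL, on 4124, 3103 and 4011 mRNA reads in NT and 3853, 3876 and 3861 in FL. Its difference in log2 TE was 0.90 ± 0.45 (limma adjusted p = 0.29), and without replicate 3 it was 1.49 (adjusted p = 0.00066). Ndufb2 had 2380, 2217 and 4159 RPFs in NT and 5352, 6141 and 2340 in FL, with a difference of 0.70 ± 0.48 (limma adjusted p = 0.38), or 1.34 without replicate 3 (adjusted p = 0.0038). Without replicate 3, 20.7% of all genes met the FL-TE-higher thresholds, so meeting them does not set this pair apart. For both genes, FL 1 and FL 2 lay above all NT libraries and FL 3 lay below NT 3.

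Sdhc and Ndufb7 show the common pattern. Sdhc had 4460, 4178 and 8209 RPFs in NT and 12789, 14093 and 6592 in FL, with mRNA at 2750, 2212 and 2342 reads in NT and 2413, 2447 and 2386 in FL. RPFs were 3.11-fold higher in FL over replicates 1 and 2 and 0.80-fold in replicate 3. Ndufb7 had 2445, 2148 and 4259 RPFs in the NT libraries and 7440, 7997 and 2174 in those of FL, a ratio of 3.36 over replicates 1 and 2 and of 0.51 in replicate 3. In NT, replicate 3 held the highest RPF value for 37 of the 43 genes, and in FL it held the lowest for 42. For these 2 counts the shares of all genes were not computed, so they are not read as particular to the group. FL 3 exceeded NT 3 for 12 of the 43 genes, beside 50.3% of all genes.

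RPFs of all 3 FL libraries exceeded all 3 NT libraries for 11 of the 43 genes (25.6%), close to the 21.5% of all genes and so no result about the group. These were Atp5g3, Atp5j2, Atp5k, Atp5l, Cox14, Cox17, Cox6c, Ndufc1, Ndufc2, Uqcr10 and Uqcrh. Cox6c, a small membrane subunit of cytochrome c oxidase, had 2993, 3101 and 3069 RPFs in NT and 7652, 8924 and 5133 in FL. Uqcrh had 1302, 1278 and 1313 in NT and 3502, 3945 and 2066 in FL. For Cox6c and Uqcrh the NT libraries were level with each other, unlike those of Sdhc and Ndufb7, and FL 3 was again the lowest FL library. Cox17 had 283, 226 and 254 RPFs in NT and 1009, 646 and 314 in FL, and Cox14 had 257, 266 and 286 in NT and 869, 1023 and 418 in FL.

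Uqcr10, described because of its values and not by the rule used for naming, is a small subunit of complex III. It had 333, 343 and 590 RPFs in NT and 1764, 2072 and 1430 in FL, on 696, 413 and 583 mRNA reads in NT and 530, 600 and 638 in FL. RPFs of FL and NT did not overlap, and the FL to NT ratio of RPFs was 5.67 over replicates 1 and 2 and 2.42 in replicate 3. Its TE was −1.05, −0.30 and −0.05 in NT and 1.74, 1.77 and 1.15 in FL.

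Genes for subunit c differed in how replicate 3 behaved. Atp5g3 had 10762, 10621 and 11148 RPFs in NT and 37085, 31609 and 15999 in FL. Atp5g2 had 6101, 6218 and 11706 in NT and 19288, 21762 and 8688 in FL, and Atp5g1 had 4020, 3827 and 7219 in NT and 11723, 13488 and 5039 in FL. As a ratio of FL to NT, the values were 3.21, 3.33 and 3.21 for Atp5g3, Atp5g2 and Atp5g1 over replicates 1 and 2, and 1.44, 0.74 and 0.70 in replicate 3.

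Ndufs1 ran opposite to the other 42 genes in replicates 1 and 2, which largely repeats its listing as NT-TE-higher from these same libraries. It had 5958, 6077 and 2820 RPFs in NT and 1357, 1285 and 4481 in FL, on 3088, 4008 and 3862 mRNA reads in NT and 4342, 4183 and 4080 in FL. FL RPFs were 0.22 times those of NT over replicates 1 and 2 and 1.59 times in replicate 3, so this gene too changed sides. Its FL minus NT difference of −1.45 ± 0.59 (limma adjusted p = 0.29) became −2.46 without replicate 3. Its mRNA alone among the 43 was higher in every FL library than in every NT library, beside 23.3% of all genes, by 0.21 on the log2 scale.

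**Figure D4:**
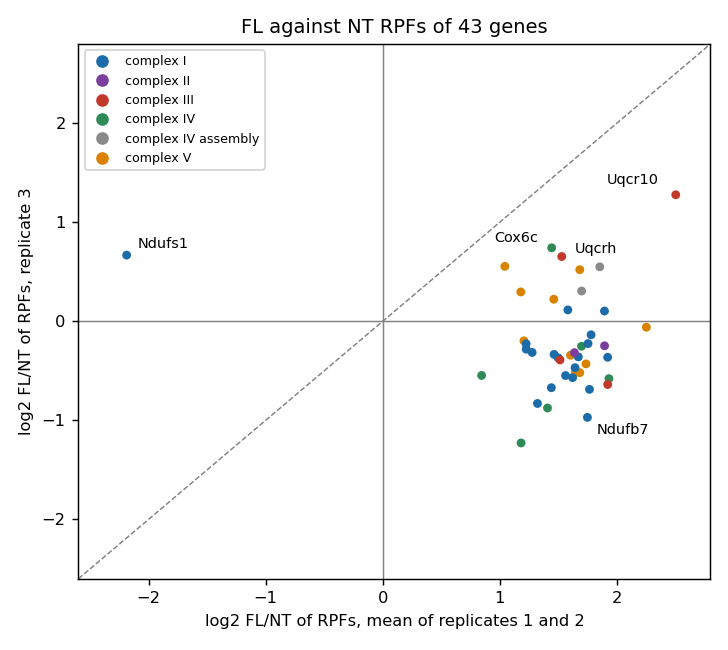
Log2 ratio of FL to NT RPFs for the 43 genes, from the means of replicates 1 and 2 (horizontal) and from replicate 3 (vertical). The dashed line marks equal ratios, and all genes but Ndufs1 lie at right, with 11 of them above 0 in replicate 3 and Uqcr10 the farthest at 2.42-fold.

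Messenger levels moved little by comparison. FL minus NT log2 mRNA ran from −0.80 for Cox6a1 to 0.21 for Ndufs1, with a median of −0.09, while the middle 90% of all genes ran from −1.81 to 1.46. Without NT RNA-Seq 1 the median was 0.03. Cox6a1, a nuclear subunit of cytochrome c oxidase, had 4604, 2799 and 3989 mRNA reads in NT and 2445, 2007 and 1993 in FL. Counting it, 8 genes had all FL mRNA libraries below all NT libraries, beside 24.1% of all genes, among them Cox5a, Cox17, Ndufb7 and Atp5e. Their FL RPFs in replicates 1 and 2 were above NT all the same, as for all 42 genes other than Ndufs1, beside 45.4% of all genes. The study had listed 40 of these 42 as FL-TE-higher from these same libraries, so this count largely repeats the choice.

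Other genes of mitochondrial respiration were read from a list of 18 that includes cytochrome c, assembly factors and organisers of the inner membrane. In mesoderm 14 of the 18 passed above the median gene, beside the 32.0% of all genes, 2 passed below, beside 34.2%, and 2 did not pass, with a median log2 TE of 0.94. Cycs, cytochrome c itself, stood at 1.81 ± 0.23 (limma adjusted p = 6.7e-05) and Chchd2 at 1.73 ± 0.24. Those below were regulators of transcription, Polrmt, the mitochondrial RNA polymerase, at −1.64 ± 0.22 and Esrra, a nuclear receptor that controls genes of energy metabolism, at −1.38 ± 0.18. By limma with all libraries, 0 of the 18 met the FL or NT thresholds, and 14 had an unadjusted p under 0.05, beside the 16.9% of all genes. On recovered reads edgeR called 0 and DESeq2 13. Their median FL minus NT difference was 1.24, or 1.70 without replicate 3 and 0.23 from replicates 3. All but Esrra were themselves placed in a TE class by the study, which limits how far their values are independent. Cycs and Chchd2 were in its mesoderm TE-high list and Polrmt in its TE-low list, so their mesoderm values repeat that choice. All but Polrmt and Esrra were listed as FL-TE-higher, so the FL minus NT values and counts repeat that choice and are a description.

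Promoters were searched for motifs known from nuclear genes of respiration. RefSeq promoter sequences on GRCm38, from 250 bases before to 50 after the gene start, were matched for 36 of the 43 genes. CCGGAAG, a word of ETS family sites, was present on either strand in 13 of them (36.1%, against 9.12% of all 27025 promoters and 11.9% of those of coding genes). TGCGCA, the core of the NRF1 site, was present in 8 (22.2%, against 8.06% and 10.1%). These are counts of letters, and occupancy was not measured here.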

How the data were processed

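Read counts per gene on the canonical UCSC transcript (mm10) were made by the authors from uniquely mapped reads, aligned with Bowtie2 after adapter trimming with cutadapt, without the first 15 and last 5 codons. The deposited values are normalized read counts (a signal), which the authors obtained by dividing counts by each library's DESeq effective library size, separately in a mesoderm table and an NT and FL table. Values were compared within a table. Ribo-Seq lysates were cleared of nuclei and mitochondria by the authors before digestion, whereas RNA came from whole pellets. Dividing each library by its smallest step returned whole reads for 100% of values (tolerance 0.1), and these recovered reads served only edgeR and DESeq2 as alternatives.

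TE was fitted with limma 3.58.1 (R 4.3.3) on log2(value + 1), with a trended prior and Benjamini-Hochberg adjustment over all genes. A fold change on this scale slightly understates low genes. In mesoderm, library type was fitted with the replicate as a block, since each sorted pool was split between assays. Deviations of same-numbered RPF and RNA libraries correlated at 0.74, 0.58 and 0.57 in replicates 1 to 3. Coefficients were centred on the median gene (shift 0.03). The FL minus NT difference in TE was the interaction of library type and tissue, as in the study, and was fitted without a block. The study names no replicate term for this contrast. It describes dissociated tissue as also split between both assays, and a block for that pairing was not fitted. The replicate block used as an alternative here ties same-numbered NT and FL libraries within each assay. Calls used the study's thresholds, adjusted p under 0.05 and 3-fold for mesoderm, adjusted p under 0.2 and 2-fold for FL against NT. Levels between genes were compared per kb of counted codons. Code was tested on simulated counts. The mean ± SE of the fit is given for n = 3 replicates, and biological replicates are as named by the study.

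Supplementary lists of the study were used only to pair identifiers with symbols and to choose genes. The authors' own fold changes and p-values were not used. The genes and lists were chosen with earlier results of these data known. Genes named by a fixed rule were Ndufs1, the genes of the mesoderm list, the highest and lowest mesoderm TE of complexes I, III, IV and V, Cox14, Cox17 and the subunit c genes. Values in every library are not printed for each of them. Any further gene named was named after its values were seen. Alternatives were other pseudocounts, a filter at a mean of 100 normalized reads, each replicate or Ribo-Seq library or NT RNA-Seq 1 left out, the block, the centring, edgeR 4.0.16 and DESeq2 1.42.0, and other thresholds.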

Additional observations from a re-analysis of the deposited data

Results flagged for a closer look

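Uqcr10 differed between FL and NT by the test of the difference itself, with a log2 TE of FL minus NT of 2.00 (limma adjusted p = 0.12, higher in 3 of 3 FL libraries than in any NT library). The gene had been chosen on this contrast. The call was lost with the replicate block (adjusted p = 0.52), without replicate 1 (adjusted p = 0.99) or 2 (0.93), and without the RNA-Seq library NT 1 (0.33, limma in each case).

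Uqcrh lay below the median gene in every NT pair, at −0.25, −0.08 and −0.38, and above it in every FL pair, at 1.23, 1.23 and 0.52. The fitted difference was 1.21, or 1.39 without replicate 3, the opposite signs themselves were not tested, and the gene had been chosen on this contrast.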

How the results depend on the processing

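The count of 36 genes above the median gene in mesoderm was lowest at 31 without the replicate block (16.9% of all genes). It was highest at 37 without centring (33.3%), in edgeR (32.0%) and in DESeq2 (31.8%). The median log2 TE ran from 1.03 to 1.30 when each replicate was left out. The TE-high count of 3 ran from 1 to 9 over the replicates left out and was 26 at a 2-fold threshold. The share of all genes passing at 2-fold was not computed. The FL-TE-higher count of 1 ran from 0 to 42 over the replicates and Ribo-Seq libraries left out. It was 42 without both NT and FL Ribo-Seq replicate 3, beside 20.4% of all genes (chosen after the data were seen, median difference 1.69). It was 22 in DESeq2 (5.08%), 1 in edgeR (0.160%), 0 at an adjusted p under 0.05 and 0 with the replicate block. Without the RNA-Seq library NT 1 it was 0 (also chosen after the data were seen, median difference 0.96). NT and FL replicate numbers were not taken as pairs, since deviations of same-numbered RPF libraries correlated at −0.29, −0.50 and −0.58. The median FL minus NT difference was between 0.67 and 1.64 over the replicates left out. Cox14 in mesoderm ran from −0.14 to 0.12 over the replicates left out and was 0.0049 without centring, never past the threshold. Cox17 ran from 0.24 to 0.88 and passed there without replicate 1, without replicate 3, without centring, in edgeR and in DESeq2. For all the changes of call named here, beyond those set by the number of samples or the threshold, the cause was not tested. Depth was at least 107 RPF reads for every gene and library.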
